A study of Drosophila sechellia with 6 samples.

Results

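The small nuclear RNAs (snRNAs), the signal recognition particle (SRP) RNA and the nuclear RNase P RNA are short RNAs that work inside RNA-protein particles. They were taken from the deposited table of *D. sechellia* genes by name: every entry whose symbol starts with snRNA, the entries named RF00017 (SRP RNA) and the entry named RF00009 (nuclear RNase P RNA). This gave 33 of 17275 entries, of which 30 are snRNAs, 2 are SRP RNA and 1 is RNase P RNA.

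The libraries were made from whole adult *D. sechellia* females of strain 14021-0428.25, 10 flies to a library, with 3 libraries from flies on control food and 3 from flies on food with 0.7% octanoic acid (OA). OA is the fatty acid held mainly responsible for the toxicity of *Morinda* fruit, the host of this fly, and the study asked which genes respond to it. Both groups were exposed for 24 hr, and the age of the flies is 1 to 4 d in the sample labels and 0 to 3 d in their protocol. RNA was selected by its poly(A) tail. The table gives 1 FPKM value per group, so no spread between libraries can be computed from it. FPKM is a fragment count divided by transcript length and by a scaling factor for the library, here from geometric normalization. It also holds the authors' own test, which was not used here, and no test was run on the group values: every difference below is a difference between 2 group values. Depth per library was not used here. The female label was read against marker genes: *Yp2*, a yolk protein gene, was at 11392 FPKM on control food and 15455 FPKM on OA food, *Vm32E*, an eggshell gene, was at 984 and 718 FPKM, and the 7 male accessory gland genes that the file names had values from 0 to 0.375 FPKM.

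Spliceosomal snRNAs pair with the pre-mRNA and with each other to remove introns. U1 recognises the start of the intron and U2 its branch point, U4 escorts U6 into the spliceosome, U5 holds the exons, and U6 forms the catalytic centre together with U2. U11, U12, U4atac and U6atac do the work of U1, U2, U4 and U6 on a rare class of introns, where U5 is shared. The SRP RNA is the scaffold of the particle that brings ribosomes with secretory proteins to the endoplasmic reticulum, and the RNase P RNA is the catalytic subunit of the enzyme that trims the leader from precursor tRNAs. None of these RNAs normally carries the long poly(A) tail of an mRNA, so reads from them in libraries of poly(A) RNA are what passed the selection. How much of each difference arose at that step was not tested.

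Of the 33 entries, 30 were above 0 FPKM in at least 1 group, and 3 were listed at 0 in both: snRNA:U4:1, snRNA:U5:5 and snRNA:U6atac:1. The change of an entry is the log2 ratio of its OA value to its control value after 1 FPKM was added to each. By this measure 27 of the 33 entries were lower in OA by at least 2-fold and 0 were higher by at least 2-fold. Among all entries of the file 3.25% were lower and 2.29% higher by as much. In RNA of whole flies, less RNA per cell and fewer cells that make it cannot be told apart. Among protein-coding entries the share lower by at least 2-fold was 1.83%, and it was 1.14% for those with a mean of at least 20 FPKM over both groups and 8.06% for those whose locus spans at most 300 bases, which are nearer to these RNAs in level and in length. One of the 27 entries, snRNA:U5:6, was listed at 0 in OA with the Cuffdiff status OK, whereas the 3 entries at 0 in both groups had the status NOTEST. Since a listed 0 need not be a true absence, snRNA:U5:6 is given no fold, and it is counted through the added 1 FPKM. By the same measure, 19 of the 33 entries, among them snRNA:U5:6, were lower in OA by at least 4-fold, and 1.63% of all entries. Folds given below for single entries and for sums are plain ratios of the FPKM values. For this reason snRNA:U4:2, 4.01-fold lower as a plain ratio, is not among the 19. The median change over the 33 entries was -2.33 on the log2 scale, against 0.00 over all entries of the file.

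**Figure D1:**
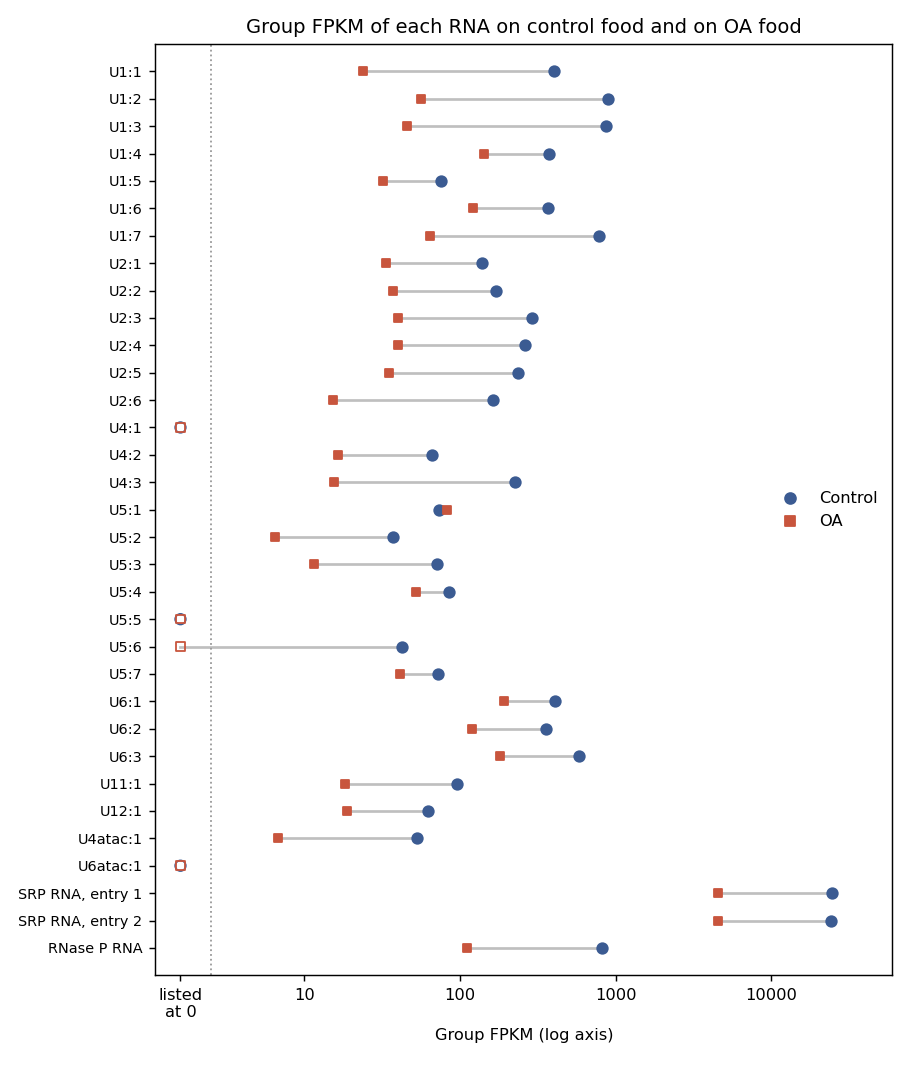
Group FPKM (log axis) of the 33 entries, 1 to a line, with a circle for the control group and a square for the OA group. Open symbols left of the dotted line are entries listed at 0. In 29 lines the square lies left of the circle, in snRNA:U5:1 it lies right of it (72.9 and 82.0 FPKM), and 3 entries are listed at 0 in both groups.

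The SRP RNA was by far the most abundant of these RNAs. Its 2 entries lie 2146 bases apart on scaffold 6, from 2737008 to 2737304 and from 2739451 to 2739747 in the *D. sechellia* assembly that the authors used. The first was at 24431 FPKM on control food and 4525 FPKM on OA food. The second was at 24279 FPKM on control food and 4520 FPKM on OA food. The values of both entries were nearly equal in each group. Whether reads were shared between them was not tested, and their sum does not depend on it. This sum was 48710 FPKM on control food and 9045 FPKM on OA food, a 5.39-fold lower value in OA. In control these were the entries with ranks 4 and 5 by FPKM in the file, and in OA they ranked 87 and 88. The SRP RNA made up 85.8% of the summed FPKM of the 33 entries in control and 85.3% in OA, so the sum over all entries describes mainly this RNA. That sum was 56781 FPKM on control food and 10603 FPKM on OA food, or 2.60% and 0.537% of the total FPKM of the file.

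The RNase P RNA has 1 entry, which was at 814 FPKM on control food and 110 FPKM on OA food, 7.39-fold lower. Its locus, on scaffold 4 from 5860723 to 5862704, is listed with the same bounds as that of the protein-coding entry GM12097, which was at 5709 FPKM on control food and 5607 FPKM on OA food. The change of the RNase P RNA minus that of GM12097 was -2.85 on the log2 scale, so the 2 entries of this locus did not move together.

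U1, the snRNA of the first splicing step, has 7 copies in the file, and the copies were of 2 kinds in their values. On scaffold 0, snRNA:U1:1 was at 402 FPKM on control food and 23.6 FPKM on OA food. Next to it, snRNA:U1:2 was at 898 and 56.0 FPKM, and snRNA:U1:3 at 866 and 45.5 FPKM. Together with snRNA:U1:7 on scaffold 14, at 781 and 64.1 FPKM, these 4 copies were lower in OA by 12.2-fold to 19.1-fold. The other 3 copies lie on scaffold 6 between 870288 and 904126. Of these, snRNA:U1:4 was at 370 FPKM on control food and 142 FPKM on OA food. The second, snRNA:U1:5, was at 75.1 and 32.2 FPKM. The third, snRNA:U1:6, was at 369 and 122 FPKM. The scaffold 6 copies were lower in OA by 2.33-fold to 3.04-fold, so that the ranges of the folds of both kinds did not overlap. They made up 21.6% of the summed U1 FPKM in control and 61.0% in OA. This division of the copies by scaffold was made after their values were seen. Summed over all 7 copies, U1 was at 3763 FPKM on control food and 485 FPKM on OA food, 7.75-fold lower, and over the copies alone in their locus it was 4.92-fold lower.

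U2, which pairs with the branch point, has 6 copies, and all 6 were lower in OA by at least 4.12-fold. On scaffold 16, snRNA:U2:3 was at 291 FPKM on control food and 40.1 FPKM on OA food. On the same scaffold, snRNA:U2:4 was at 261 and 40.2 FPKM and snRNA:U2:5 at 235 and 35.1 FPKM. These 3 copies lay close together, with folds of 6.48 to 7.25. On scaffold 7, snRNA:U2:1 was at 138 FPKM on control food and 33.5 FPKM on OA food, and snRNA:U2:2 was at 171 and 36.9 FPKM. On scaffold 47, snRNA:U2:6 was at 164 and 15.3 FPKM, the largest fold of the type, 10.7. Over all 6 copies the OA values ran from 15.3 to 40.2 FPKM and the control values from 138 to 291 FPKM. As a ratio of highest to lowest, the OA range was the wider. The OA values of the other 5 copies lay within 33.5 to 40.2 FPKM, a narrower range than in control, but snRNA:U2:6 was left out for its value. The sum over U2 was 1259 FPKM on control food and 201 FPKM on OA food, 6.26-fold lower.

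U4 and U6 travel as a pair before U4 is released from the spliceosome. Among the U4 copies, snRNA:U4:2 was at 66.2 FPKM on control food and 16.5 FPKM on OA food. A second copy, snRNA:U4:3, was at 227 and 15.6 FPKM. The 2 copies were thus alike in OA and 3.43-fold apart in control, and they were lower in OA by 4.01-fold and 14.6-fold. The locus of snRNA:U4:3 is shared with a protein-coding entry at 12.2 FPKM on control food and 15.1 FPKM on OA food. Whether the values of snRNA:U4:3 hold reads of that entry was not tested. The summed U4 value was 293 FPKM on control food and 32.1 FPKM on OA food, 9.15-fold lower, and without snRNA:U4:3 the fold of the type was 4.01, so 1 entry set this value.

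The 3 copies of U6, the catalytic snRNA, which RNA polymerase III makes while RNA polymerase II makes the other major snRNAs, lie side by side on scaffold 0. The first, snRNA:U6:1, was at 408 FPKM on control food and 192 FPKM on OA food. The second, snRNA:U6:2, was at 359 and 120 FPKM, and snRNA:U6:3 was at 584 and 180 FPKM. All 3 were lower in OA, by 2.13-fold to 3.25-fold, below the range of the U2 copies. The U1 copies of scaffold 6, at 2.33-fold to 3.04-fold, lay within the U6 range, so folds of this size were not particular to U6. The smallest change of the U6 copies, for snRNA:U6:1, was a log2 change of -1.09, the nearest of the 27 entries to the 2-fold limit. With both groups scaled to the same total FPKM it was -0.94, which ends the call of this entry and leaves 26. Summed U6 was 1350 FPKM on control food and 491 FPKM on OA food, 2.75-fold lower.

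U5, which aligns the exons and serves both spliceosomes, was the type whose copies lay on both sides of the 2-fold limit. One copy, snRNA:U5:1 on scaffold 2, was at 72.9 FPKM on control food and 82.0 FPKM on OA food, and it was the only one of the 33 entries with the higher value in OA. Its log2 change was 0.17, and it stayed above 0 when both groups were scaled to the same total FPKM (0.31) and when changes were centred on protein-coding entries (0.10). A pair of copies was lower by less than 2-fold. In this pair, snRNA:U5:4 was at 84.8 FPKM on control food and 52.3 FPKM on OA food, and snRNA:U5:7 was at 72.2 and 41.3 FPKM. Their log2 changes of -0.69 and -0.79 are the nearest outside the 2-fold limit. The remaining copies were lower by more. Of these, snRNA:U5:2 was at 36.9 FPKM on control food and 6.50 FPKM on OA food. The entry snRNA:U5:3 was at 71.1 and 11.5 FPKM. The entry snRNA:U5:6 had 42.7 FPKM on control food and a listed 0 on OA food. Over the type the sum was 381 FPKM on control food and 194 FPKM on OA food, 1.97-fold lower, just short of 2-fold. The fold was 1.75 without snRNA:U5:6 and 2.76 without snRNA:U5:1, and centring on protein-coding entries gave a log2 change of -1.04, so the side of the limit depends on these choices. How reads that fit more than 1 copy were divided was not tested, and the sum depends on it less than the values of single copies.

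**Figure D2:**
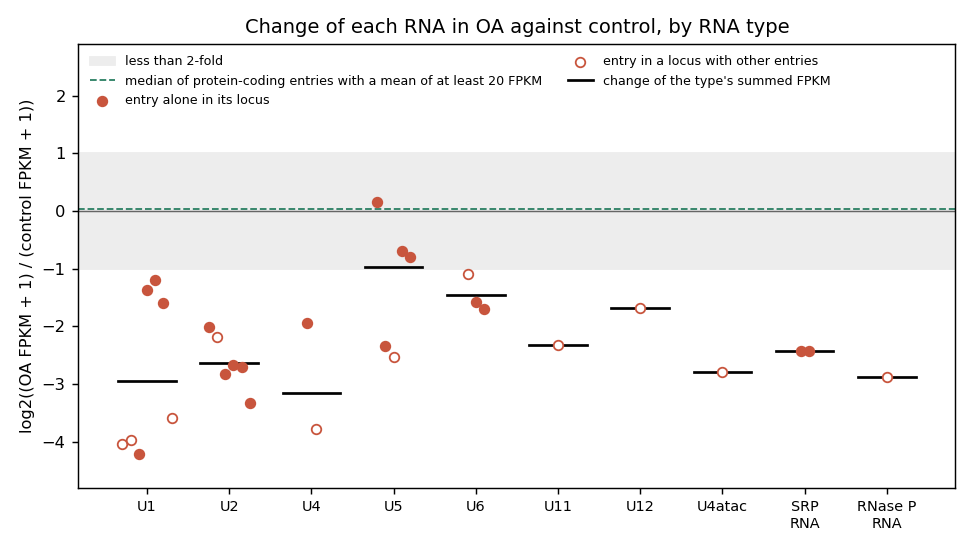
Log2 change of OA against control for the 29 entries above 0 in both groups, by RNA type; filled points are entries alone in their locus, open points entries in a locus with other entries, and black bars the change of the summed FPKM of the type, which for U5 includes an entry listed at 0 in OA. The grey band marks changes of less than 2-fold and the dashed line the median of protein-coding entries with a mean of at least 20 FPKM, 0.04. The U1 points form 2 sets, from -1.20 to -1.59 and from -3.59 to -4.22, and U5 spans from 0.17 to -2.53.

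The 5 major spliceosomal snRNAs stand in defined complexes with each other, so their sums were set side by side. In control the order was U1, U6, U2, U5 and U4, from 3763 to 293 FPKM. In OA, U6 and U1 were at 491 and 485 FPKM, followed by U2, U5 and U4, from 201 to 32.1 FPKM. The ratio of U6 to U1 was 0.359 in control and 1.01 in OA, and that of U5 to U1 was 0.101 and 0.399. With only the entries alone in their locus these ratios were 0.561 and 0.876 for U6 and 0.184 and 0.533 for U5, so U1 was then above U6 in OA as well. The ratio of U2 to U1 was 0.335 and 0.415, and that of U4 to U1 was 0.0779 and 0.0660. With only the entries alone in their locus, the log2 changes of the sums were -2.30 for U1, -2.73 for U2 and -2.005 for U4. The ratio of U2 to U1 was then smaller in OA and that of U4 to U1 larger. U6 and U5 were thus the types whose weight relative to U1 was larger in OA in both settings. U2 and U4 stayed nearer to U1, and the direction of their ratios depended on the entries used. FPKM of RNAs this short depend on the length correction of Cuffdiff, which divides out within 1 RNA between the groups but not between RNAs of unlike length, so the ratios describe these values and not the numbers of molecules.

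**Figure D3:**
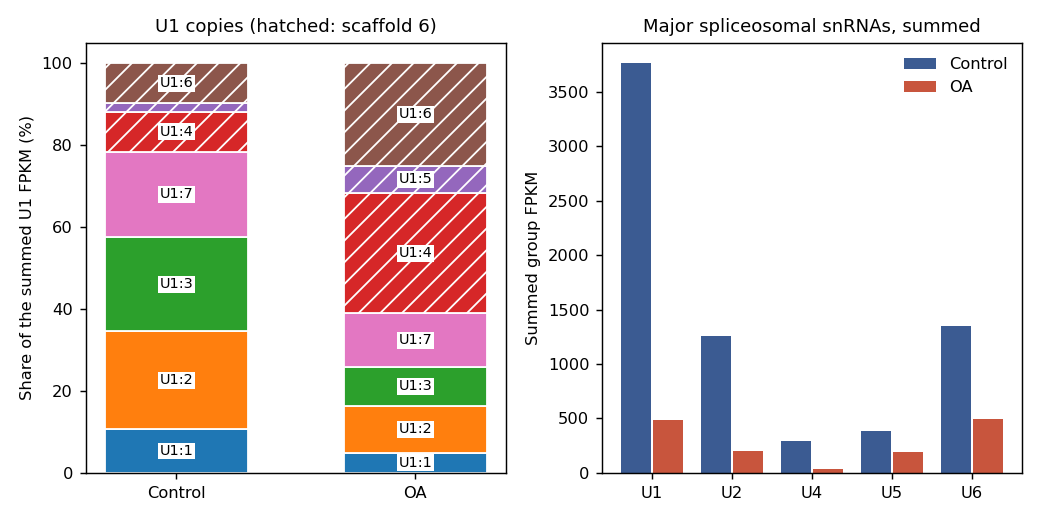
Left, share of each of the 7 U1 copies in the summed U1 FPKM (%) of each group, with the copies of scaffold 6 hatched and the unlabelled segment in control being snRNA:U1:5. Right, summed group FPKM of the 5 major spliceosomal snRNAs. The hatched share is 21.6% in control and 61.0% in OA, and each of the 5 sums is lower in OA.

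Of the snRNAs of the minor spliceosome, 3 were measured above 0. U11, the counterpart of U1, was at 95.7 FPKM on control food and 18.2 FPKM on OA food, 5.25-fold lower. U12, the counterpart of U2, was at 62.1 and 18.7 FPKM, 3.32-fold lower. U4atac was at 53.1 and 6.76 FPKM, 7.85-fold lower. With U6atac listed at 0 in both groups, the 4 minor snRNAs together were 4.82-fold lower in OA, against 5.02-fold for the 26 entries of the major snRNAs. Each minor snRNA has 1 entry, so neither its spread over copies nor its spread over libraries is known. Each of these entries shares its locus with a protein-coding entry, so its value can also hold reads of that entry.

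Position gave a second way to read these values, because the loci of 13 of the entries are listed with the same bounds as those of other genes. These shared loci span from 1399 to 29492 bases, far more than the RNA itself, and the file does not give the position of the RNA within them. The other 20 entries were alone in their locus, with spans of 107 to 297 bases. Of the entries alone in their locus 16 were lower in OA by at least 2-fold, with a median log2 change of -1.98, and of those in shared loci 11 were, with a median of -2.53. The 11 shared loci hold 11 protein-coding entries, and 0 of these were lower by at least 2-fold. Their median log2 change was 0.09, and 8 of them were at 1 FPKM or more in both groups. At the locus of snRNA:U5:3, for example, the protein-coding entry GM18393 was at 285 FPKM on control food and 302 FPKM on OA food, while the snRNA was at 71.1 and 11.5 FPKM. The only protein-coding entry of these loci past 2-fold was higher in OA, had a listed 0 on control food and 1.36 FPKM on OA food, and shares its locus with snRNA:U1:7. Of these protein-coding entries 4 had the lower value in OA, each by less than 2-fold, whereas each of the 11 small RNAs of these loci that were above 0 was lower by at least 2-fold. Values of RNAs that lie inside another gene can also hold reads of that gene.

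**Figure D4:**
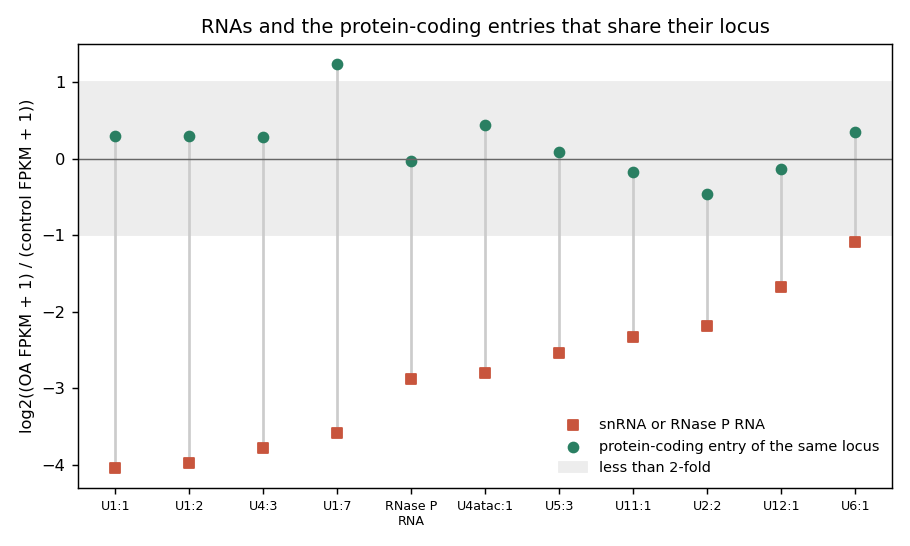
Log2 change of OA against control for the 11 entries above 0 that share a locus with a protein-coding entry (squares) and for that protein-coding entry (circles), ordered by the change of the RNA; snRNA:U1:1 and snRNA:U1:2 share 1 locus and 1 protein-coding entry. The grey band marks changes of less than 2-fold. The squares lie between -4.03 and -1.09 and the circles between -0.46 and 1.24.

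Some snRNA genes lie in clusters that hold more than 1 type. Neighbours of unlike type could differ in their change. On scaffold 47, snRNA:U5:7 and snRNA:U2:6 are 335 bases apart and had log2 changes of -0.79 and -3.33. On scaffold 7, snRNA:U4:2, snRNA:U5:4 and snRNA:U2:1 follow each other within gaps of 1042 and 651 bases, and their log2 changes were -1.94, -0.69 and -2.01. At both sites the U5 copy had the smaller change and the U2 copy next to it a change of at least 4-fold. On scaffold 16, snRNA:U5:6 lies 287 bases from snRNA:U2:5, and it had 42.7 FPKM on control food and a listed 0 on OA food. As listed, this U5 copy had the larger change of its pair, though it is given no fold. In the cluster of scaffold 7, snRNA:U2:1 and snRNA:U2:2 had log2 changes of -2.01 and -2.18. The -1.94 of snRNA:U4:2, of another type, was nearer still to that of snRNA:U2:1. On scaffold 16, snRNA:U2:3, snRNA:U2:4 and snRNA:U2:5 had log2 changes of -2.83, -2.67 and -2.71. The 3 U6 copies, the 3 U1 copies of scaffold 6 and the 3 U1 copies of scaffold 0 each had folds close to those of their neighbours of the same type. Some copies of 1 type lie further apart than the neighbours of unlike type, with 33504 bases between snRNA:U2:4 and snRNA:U2:5 and 19301 between snRNA:U1:4 and snRNA:U1:5. Copies of 1 type may share reads, which was not tested, so their likeness is not read further.

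Proteins that act on snRNAs could be followed only where the file names them. Of 70 listed proteins of the snRNP, SRP and RNase P particles and of snRNA promoters, 0 appear by name, and identifiers of the form GM are not paired with names here. Among the names that the file does give, picked for their role, are the cap-binding proteins *Cbp20* and *Cbp80*, which hold the cap of new snRNAs and mRNAs. *Cbp20* was at 51.4 FPKM on control food and 54.2 FPKM on OA food, and *Cbp80* at 37.5 and 37.6 FPKM. *IntS3* and *asun* encode subunits of Integrator, the complex that cleaves the end of new snRNAs. *IntS3* was at 60.28 FPKM on control food and 62.02 FPKM on OA food, and *asun* at 9.54 and 11.8 FPKM. *STIP*, the fly counterpart of a factor that takes the spliceosome apart, was at 7.59 and 7.52 FPKM. *Es2*, a spliceosome-associated protein gene, was at 19.6 and 21.9 FPKM. The log2 changes of these 6 genes lay between -0.01 and 0.28, while the summed snRNA types above 0 had log2 changes of -0.97 or below.

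Other RNA classes, most of them without a long poly(A) tail, were set beside these entries. Their sums were lower in OA except for tRNA and miRNA, where few entries were above 0. Of the 139 entries of 18S, 5.8S and 5S rRNA, 132 were lower in OA by at least 2-fold. Their summed values were lower in OA by 9.55-fold for 18S rRNA, 19.5-fold for 5.8S rRNA and 28.3-fold for 5S rRNA, against 5.39-fold for SRP RNA, 7.39-fold for RNase P RNA and 5.01-fold for all 30 snRNA entries. The snoRNA sum was nearly unchanged, at 76939.2 FPKM on control food and 71902.5 FPKM on OA food, 1.07-fold lower. Among the 242 snoRNA entries 38.4% were lower and 12.4% higher by at least 2-fold, and 83 were listed at 0 in both groups. Of the 33 entries described here 27 were lower and 0 higher, and 3 were listed at 0 in both. Over the entries above 0 in either group, the median log2 change was -1.45 for snoRNA and -2.33 for snRNA. Histone entries, whose mRNAs end in a stem-loop in place of a tail, had a 1.42-fold lower sum, and 7 of the 103 were lower by at least 2-fold. The tRNA and miRNA sums were higher in OA, with 153 and 1047 FPKM for tRNA and 430.3 and 713 FPKM for miRNA on control and OA food. Of 312 tRNA entries 309 were listed at 0 in both groups, and of 78 miRNA entries 70. By at least 2-fold, 2 tRNA entries were higher in OA and 1 lower, and 5 miRNA entries were higher and 2 lower. The total FPKM of the file was smaller in OA by a ratio of 0.903, and the 33 entries made up 21.7% of this drop. What the rRNA and these RNAs share in their change was not tested, and poly(A) selection and OA exposure cannot be told apart from 1 value per group.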

How the data were processed

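Whole-fly poly(A) RNA was measured in 6 libraries, 3 per group, grouped by sample title. Reads were mapped by the authors with Bowtie2 to Ensembl's *D. sechellia* genome (annotation release 34) and quantified with Cuffdiff, with geometric normalization and with corrections for length and for sequence bias; versions are not given in the sources used here. The deposited values are FPKM, 1 per group. The 5 columns of the authors' own comparison (fold change, statistic, p-value, q-value and call) were not used. Depth per library was not used here, so precision is unknown.

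Changes were log2(FPKM + 1) differences, which understate low entries. Entries past 2-fold were counted and no test was run. The arithmetic was tested on simulated data. All members are accounted for; those at 1 FPKM or more in either group are given with both values. The reference table, for assembly ASM438219v2, matched 0 of 17275 identifiers, so GM numbers stay unnamed and at most 2 are printed per direction. Starts in the file count from 0 and are printed counted from 1. The members and lists were chosen with earlier results of these data known. Alternatives covered the pseudocount, filter, status, scaling, fold limit, shared loci and copies. Python 3.11.15, NumPy 2.4.6, pandas 2.3.3 and Matplotlib 3.10.9 were used.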

Additional observations from a re-analysis of the deposited data

How the results depend on the processing

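No paired analysis was possible because each group has 1 pooled value, and for this reason no library could be left out. Of 88 alternative values 79 stayed within 1.5 times of the value given, 9 moved further and 0 changed sign. The 88 include counts and shares, which cannot change sign, and the count of entries higher by at least 2-fold, which was 0 in every setting. The count of 27 entries lower in OA by at least 2-fold became 16 when the 13 entries in shared loci were left out, by construction, since 20 entries then remained. It was 29 at 1.5-fold, 19 at 4-fold and 26, without snRNA:U6:1, with both groups scaled to the same total FPKM. The log2 changes of summed U1 and U4 were -2.95 and -3.15. With entries alone in their locus they became -2.30 and -2.005, because other copies then carried the sums. Weighting by span, or leaving it out in a setting added after seeing the data, had to give the same values here. The U1 entries alone in their locus all span 164 bases, and for U4 only snRNA:U4:2 among them was above 0. Without its highest entry U4 was at -1.94, which is again snRNA:U4:2, here with 1 FPKM added. With a pseudocount of 10 FPKM U4atac went from -2.80 to -1.91. The median of -2.33 over the 33 entries lay between -2.39 and -1.90. Weighting by span gave no value for U11, U12, U4atac and RNase P RNA, which share their loci, and U6atac had none at all. The share of protein-coding entries lower by at least 2-fold, 1.83%, was 1.14% at a mean of at least 20 FPKM and 8.06% at a span of at most 300 bases, both added after seeing the data. Sharing of reads between copies of 1 RNA was not tested.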
